A study of Mus musculus with 24 samples.

Results

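Type I interferon response genes are genes that cells switch on after sensing type I interferon, and 33 were looked up here by gene symbol. The list was chosen with earlier results of these data known, so it is not tested as a whole. Of the 33, 31 were found among the 19015 genes of the table. Mx1 and Mx2 were not analysed here. RNA was sequenced from female mice aged 12 weeks that were either wildtype (WT) or carried a knockout of Prxl2a (KO), a gene for a peroxiredoxin-like protein. Inguinal adipose tissue (IAT, a subcutaneous white fat), dorsal brown adipose tissue (BAT, a heat-producing fat), brain and liver were each sequenced from 3 WT and 3 KO mice, giving 8 groups and 24 libraries. All mice were fed normally and given no other agent, and blood was washed out with PBS before the tissues were frozen. How the knockout was made, and whether a replicate number marks the same mouse in several tissues, is not given in the sources used here.

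Type I interferons (interferon alpha and beta) bind a receptor made of IFNAR1 and IFNAR2, which signals through the kinases JAK1 and TYK2. A complex that includes STAT2 and IRF9 then enters the nucleus and binds the interferon-stimulated response element, a short DNA motif. The genes it turns on sense viral RNA, block translation and virus entry, or raise and limit the response itself, and many of them are also expressed at a low level without infection.

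The genotype labels were checked first with Prxl2a, in CPM (counts scaled to the size of each library, normalised within a tissue). It stood at 322 to 506 CPM in WT and 9.57 to 23.6 CPM in KO in IAT, at 471 to 502 against 18.9 to 25.7 CPM in BAT, at 84.1 to 119 against 5.35 to 6.34 CPM in brain and at 69.9 to 88.7 against 0.919 to 2.09 CPM in liver. Library totals ran from 12327459 to 18257788 counts. Adipoq in both fats, Ucp1 in BAT, Snap25 in brain and Alb in liver were all abundant, while Ucp1 was at most 1.11 CPM in IAT. Some IAT and BAT libraries held transcripts of other cell types, and those values are given beside the results they touch.

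The members sit on 14 chromosomes (GRCm38.p6), and several lie next to relatives. Ifit2, Ifit3, Ifit3b and Ifit1 lie within 99.5 kb of chromosome 19 (34550550 to 34650009). Oas2, Oas3, Oas1g and Oas1a lie within 177 kb of chromosome 5 (120730333 to 120907544), with Oasl2 and Oasl1 elsewhere on that chromosome. Ifi27l2a, Ifi27 and Ifi27l2b share 23.4 kb of chromosome 12, where Rsad2 and Cmpk2 are also neighbours. Transcripts of Ifit3 and Ifit3b are 97.8% identical over 1700 aligned bases, and those of Oas1a and Oas1g 97.5% over 1860. Reads of these pairs were shared out between genes, as the estimated counts of Ifit3 and Ifit3b were not whole numbers in 24 of 24 libraries and those of Oas1a and Oas1g in 19. The values of these 4 genes are uncertain as to which copy the RNA came from. The Ifi27l2a and Ifi27l2b transcripts are 87.2% identical over 273 aligned bases.

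Promoter sequence was described because one motif defines this response. RefSeq promoters of GRCm38.p6, each with 250 bases before and 50 after a gene start, were matched for 22 of the 31 members. The letters searched were GAAA, any 2 bases, then GAAA, on either strand, and matches could overlap. They were present in 14 of the 22 members (63.6%). Counted by promoter sequence, they were in 14 of 24 from members (58.3%) and in 3.44% of all 32851 of the same length. A match is a description of the letters and not evidence of binding. No promoter entry was matched for Oas2, Usp18, Ifi27, Ifi27l2a, Ifi27l2b, Dhx58, Zbp1, Rtp4 and Parp14. The windows below are from members that the results turn on, including both copies of each near-identical pair. They are written 5′ to 3′ on the gene's strand, upstream of the start, with the matching letters in capitals (GAAA runs, or TTTC runs where the match is on the opposite strand).
Isg15 (chr4:156200855-156200916, minus strand): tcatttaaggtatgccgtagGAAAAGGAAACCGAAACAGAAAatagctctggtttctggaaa
Ifit1 (chr19:34640765-34640833, plus strand): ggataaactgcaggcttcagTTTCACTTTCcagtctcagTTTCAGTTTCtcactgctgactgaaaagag
Ifit3 (chr19:34583353-34583436, plus strand): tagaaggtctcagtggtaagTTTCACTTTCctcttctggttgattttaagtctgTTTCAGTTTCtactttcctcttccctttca
Ifit3b (chr19:34607749-34607832, plus strand): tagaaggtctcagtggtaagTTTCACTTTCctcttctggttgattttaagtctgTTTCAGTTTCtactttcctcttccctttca
Oas1a (chr5:120907526-120907565, minus strand): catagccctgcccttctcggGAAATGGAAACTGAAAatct
Oas1g (chr5:120887614-120887651, minus strand): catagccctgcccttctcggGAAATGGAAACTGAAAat
Rsad2 (chr12:26456543-26456592, minus strand): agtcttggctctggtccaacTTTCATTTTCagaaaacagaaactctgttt
Stat2 (chr10:128270256-128270305, plus strand): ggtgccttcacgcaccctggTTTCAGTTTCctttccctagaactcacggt

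Isg15 held 3 overlapping matches between 78 and 57 bases before its start, Ifit1, Ifit3, Ifit3b, Oas1a and Oas1g held 2 each, and Rsad2 and Stat2 held 1. The windows of Ifit3 and Ifit3b have the same letters throughout. Matches in Ifih1, Ddx58, Ifitm3 and Eif2ak2 lay only after the start.

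Levels in WT tissue were compared in TPM, which is scaled by gene length and so can be set side by side between genes. Between tissues, TPM is not adjusted for a few very abundant genes taking up much of a library. In WT liver, 5 liver genes alone summed to 124071 to 156043 CPM. Of 15628 genes with a mean of at least 1 TPM in any tissue, 59.3% were highest in brain and 64.6% lowest in liver. IAT had the highest mean for 26 of 31 members (83.9%, against 21.2% of 15628 genes with a mean of at least 1 TPM), and brain had the lowest for 26 (83.9%, against 12.9% of those genes). In 16 of the 31, every WT IAT library was above every library of the other tissues. The median of the members' mean TPM was 23.4 in IAT, 8.51 in BAT, 6.61 in liver and 2.97 in brain. All 31 members differed between the 4 WT tissues (edgeR quasi-likelihood F-test, adjusted p under 0.05), as did 96.1% of all genes tested. The filter on low counts ran over the 12 WT libraries together, so a gene could enter through any tissue where it was high. For a member such as Ifi27l2b, at a mean of 17.5 TPM in liver and 0.24 TPM in brain, the difference follows in part from that. In bulk tissue, fewer cells of a type and less RNA per cell cannot be told apart.

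**Figure D1:**
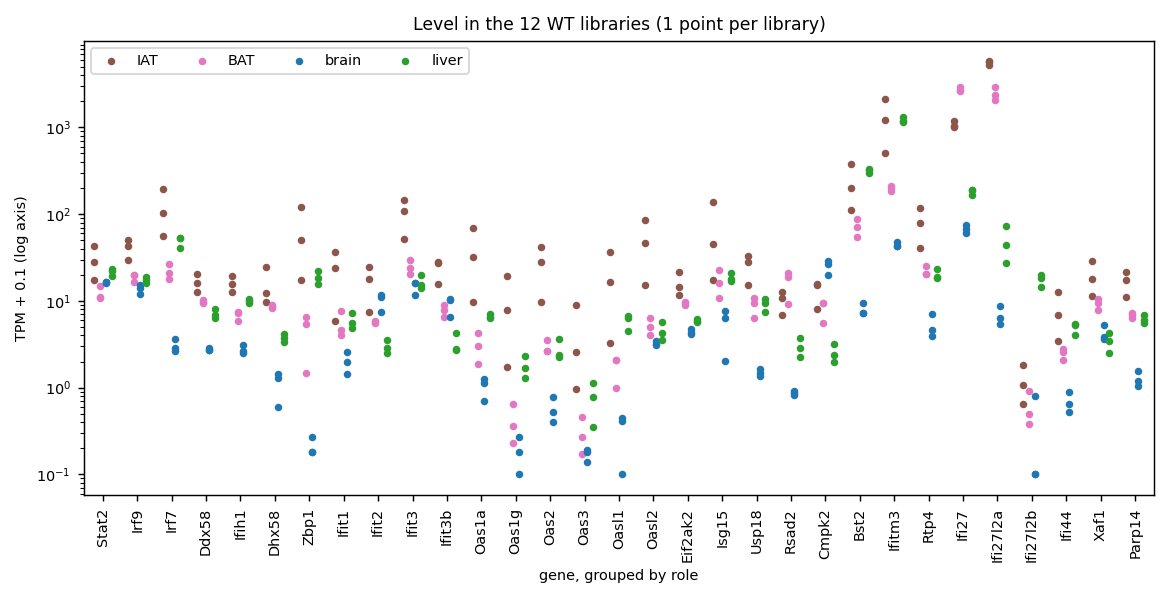
TPM + 0.1 on a log axis for each member in the 12 WT libraries, with 1 point per library coloured by tissue and genes ordered by role. IAT points lie highest for most genes and brain points lowest, while Ifi27 is highest in BAT, Cmpk2 in brain and Ifi27l2b in liver.

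The most abundant members were the small membrane proteins. Ifi27l2a, a small mitochondrial membrane protein, was at 5613, 5173 and 5760 TPM in the WT IAT libraries, at 2085 to 2914 TPM in BAT, 27.6 to 73.5 TPM in liver and 5.37 to 8.65 TPM in brain. Its relative Ifi27 was highest in BAT, at 2632, 2954 and 2667 TPM, against 1008 to 1173 TPM in IAT, 167 to 190 TPM in liver and 60.4 to 75.1 TPM in brain, and none of the 4 tissues overlapped. Ifitm3, which blocks virus entry at endosomes, was at 509, 1231 and 2123 TPM in IAT and 1166 to 1327 TPM in liver, so those tissues overlapped, and at 42.6 to 47.9 TPM in brain. Bst2 (tetherin), which holds budding virus at the cell surface, was at 299 to 331 TPM in liver and overlapped IAT, at 111 to 381 TPM.

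Several members went against the general order. Cmpk2, a mitochondrial nucleotide kinase, was at 26.8, 28.6 and 19.8 TPM in brain, above all other WT libraries (IAT 8.06 to 15.5, BAT 5.49 to 9.33, liver 1.88 to 3.12). Rsad2 (viperin), its genomic neighbour that makes a chain-terminating nucleotide, was by contrast at 0.73 to 0.81 TPM in brain and highest on average in BAT, at 9.04, 18.6 and 21.0 TPM, which overlapped IAT at 6.8 to 12.5 TPM. Ifi27l2b was at 18.2, 19.9 and 14.3 TPM in liver and at most 1.73 TPM in any other WT library. The oligoadenylate synthetases, which make the 2-5A signal that activates RNase L, were lowest in brain for Oas1a (0.60 to 1.17 TPM) and Oas2 (0.30 to 0.68 TPM). In brain, Oas1g, Oas3, Oasl1, Ifi27l2a, Ifi27l2b and Zbp1 did not pass the filter on low counts, nor did Oas1g, Oas3 and Ifi27l2b in BAT. All 31 members passed in IAT and liver.

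In BAT, no member was called different between KO and WT (edgeR quasi-likelihood F-test, 0 of 28 at an adjusted p under 0.05 and 0 at an unadjusted p under 0.05). Of all genes tested, edgeR called 0.54%, and 18.5% were at an unadjusted p under 0.05. DESeq2, with 1 member given no adjusted p, and limma-voom also called 0 members, against 3.71% and 0.437% of all genes. Members leaned higher in KO, with 25 of 28 above 0 and a median log2 fold change of 0.47, against -0.01 over all genes. The lean rested on KO replicate 2, where 26 of 28 members (92.9%) had their highest value of the 6 libraries, against 16.7% of all genes. No member had KO and WT libraries that did not overlap, where 25.6% of all genes did.

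**Figure D2:**
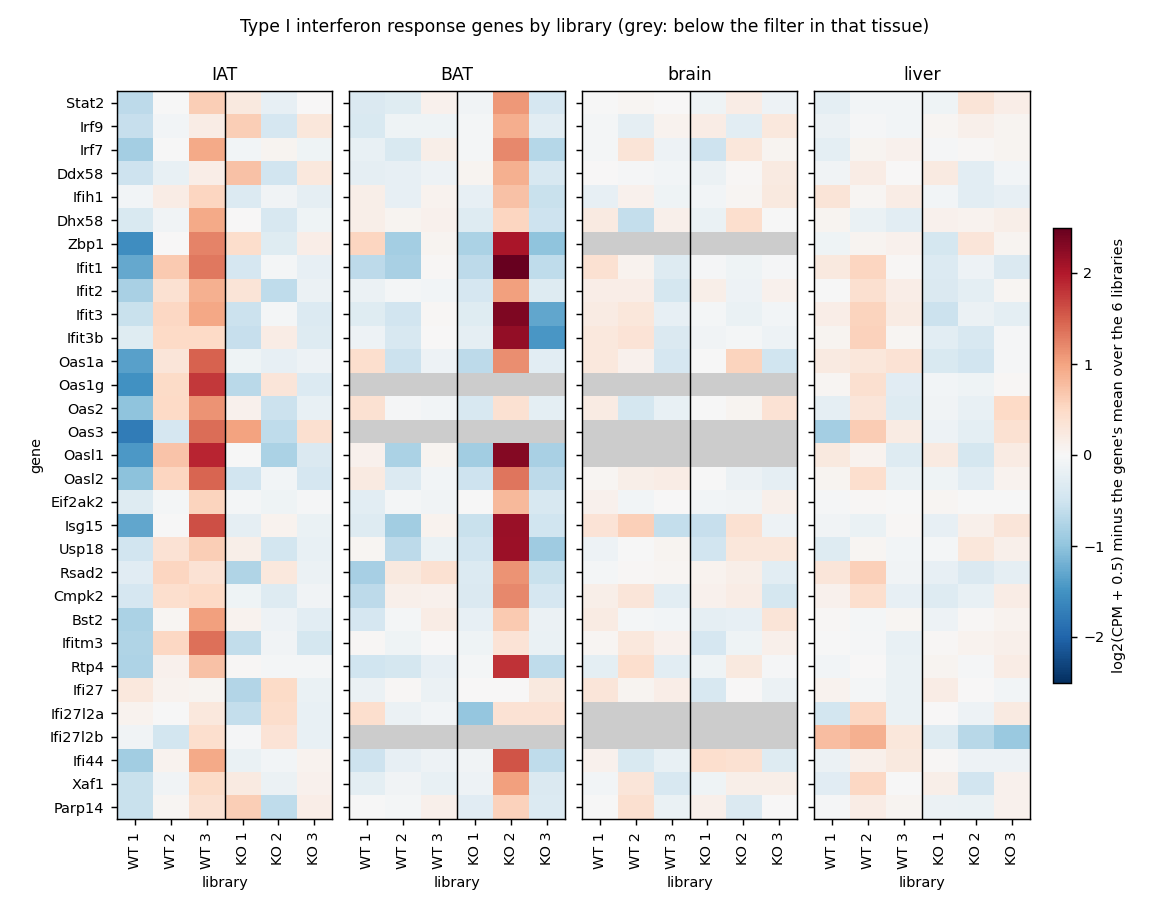
Colour shows log2(CPM + 0.5) of each member in each of the 24 libraries, minus the gene's mean over the 6 libraries of that tissue, and a vertical line separates WT from KO. BAT KO replicate 2 and IAT WT replicate 3 are red for most genes, IAT WT replicate 1 is blue, and brain shows little colour.

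The IFIT genes, whose proteins bind foreign RNA and block its translation, were all highest in this library. Ifit1 was at 7.75, 6.96 and 12.8 CPM in the WT libraries and at 7.81, 85.0 and 7.96 CPM in KO replicates 1, 2 and 3. KO replicate 2 was 9.81 times the mean of the other 5 libraries, and KO replicates 1 and 3 lay within the WT range. The log2 fold change was therefore 1.87 with an SE of 0.91 (edgeR adjusted p = 0.315). Ifit3 was at 29.3, 25.7 and 36.9 CPM in WT and at 29.2, 183 and 14.4 CPM in KO, with the third KO library below all others (log2 fold change 1.3, SE 0.81, edgeR adjusted p = 0.410). Its copy Ifit3b followed the same order in KO, at 9.29, 52.4 and 3.69 CPM. Ifit2 reached 32.3 CPM in KO replicate 2 and 11.6 to 15.1 CPM elsewhere.

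The genes of the ISG15 system and the regulators were high in the same library. Isg15, a ubiquitin-like protein attached to other proteins, was at 5.24, 3.44 and 7.12 CPM in WT and 4.36, 31.6 and 4.59 CPM in KO. Usp18, which removes ISG15 and dampens the receptor, was at 11.5, 6.88 and 9.94 CPM in WT and 7.81, 51.1 and 5.82 CPM in KO. For Isg15 KO replicates 1 and 3 lay within the WT range. For Usp18 KO replicate 1 did, while KO replicate 3 lay below every WT library. Irf7, the factor that amplifies interferon production, was at 59.8 CPM in KO replicate 2 and 15.5 to 28.8 CPM elsewhere. Stat2 was at 90.3 against 31.4 to 45.9 CPM and Irf9 at 64.0 against 25.7 to 32.4 CPM. All 3 of these signal transducers had their highest BAT value in KO replicate 2.

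Size differed between members within that library. The ratio to the mean of the other 5 libraries was 7.91 for Oasl1, which restrains Irf7 translation, 5.95 for Zbp1, a sensor of Z-form nucleic acid, 4.59 for the chaperone Rtp4 and 3.98 for Ifi44. It was 2.10 for Ddx58 (RIG-I) and 1.83 for Ifih1 (MDA5), both sensors of viral RNA, and 1.96 for Eif2ak2 (PKR), the kinase that halts translation. It was 1.33 for Ifitm3, 1.28 for Ifi27l2a and 1.0 for Ifi27, the members most abundant in BAT. Ifi27l2a and Ifi27 were the exceptions, with their highest values in WT replicate 1 and KO replicate 3. In all, 19 of 28 members (67.9%) were at least 2-fold above the mean of the other 5 libraries, against 98 of 12588 genes (0.779%). Genes with a mean of at least 5 CPM over all 6 libraries, 25 members among them, were also ranked by this ratio. That mean includes KO replicate 2 itself. Isg15 and Ifi44, at means of 4.95 and 4.38 CPM in the other 5 libraries, reached it only through that library. Of the 50 genes with the largest ratio, 16 were members and 7 came from the list of other interferon-inducible genes, including Slfn8 at 5.75. Members with the response element letters in their promoter had a median ratio of 2.43 (n = 12), those with a promoter but no such letters 2.70 (n = 8) and those with no promoter matched 1.58 (n = 8). In IAT WT replicate 3 these medians were 2.23 (n = 14), 2.07 (n = 8) and 1.76 (n = 9). The order of members with and without the letters thus differed between these libraries, and no test was made. Matches after the start were counted too.

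KO replicate 3 of BAT had the lowest value of the 6 libraries for 16 of 28 members (57.1%), against 22.4% of all genes. Without KO replicate 2 the BAT direction turned. The median log2 fold change became -0.27, with 4 members higher and 24 lower in KO, and no member was called (smallest edgeR adjusted p = 0.232). Ifit1 went from 1.87 to -0.22 (SE 0.29) and Zbp1 from 0.87 to -1.20 (SE 0.54). Summed macrophage and monocyte markers and lymphocyte markers were not higher in KO replicate 2 than in all other BAT libraries. The summed macrophage and monocyte list was 181 CPM there, the lowest of the 6 libraries (others 195 to 532), and the lymphocyte list 9.58 CPM (others 9.45 to 18.2). Of the 22 macrophage and monocyte genes, 2 were at 0 there, and of the 19 lymphocyte genes 4 were. Only 7 of those 19 passed the filter in BAT. The Kupffer cell gene Clec4f was at 0 in every BAT library. Skeletal muscle markers summed to 176 CPM in KO replicate 2, within the 70.8 to 193 CPM of the other libraries apart from WT replicate 1 at 2243 CPM. The part of these cells in the BAT values was not tested.

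**Figure D3:**
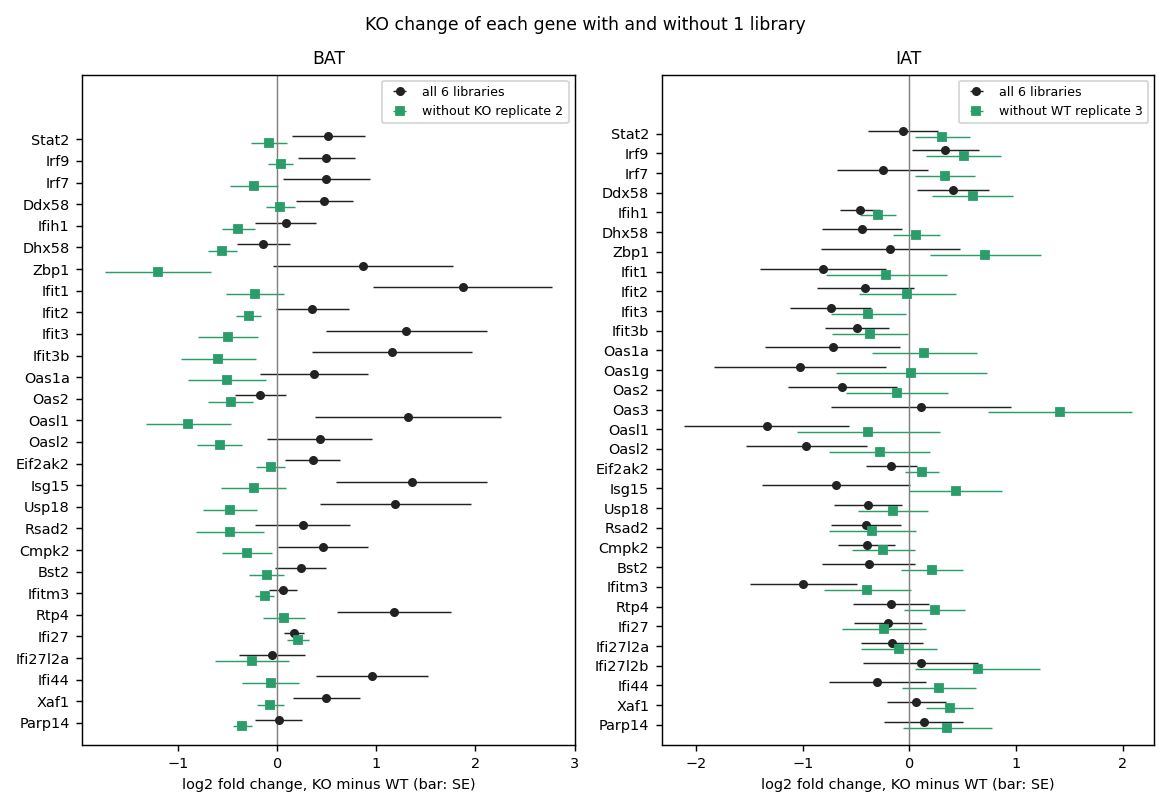
Log2 fold change of each member (KO minus WT, bars are SE), with all 6 libraries as black circles and with 1 library left out as green squares. In BAT most members move from above 0 to below it without KO replicate 2, and in IAT 17 of 31 lie above 0 without WT replicate 3.

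In IAT, no member was called either (edgeR, 0 of 31 at an adjusted p under 0.05 and 1 at an unadjusted p under 0.05). Of all genes, edgeR called 0%, and 15.8% were at an unadjusted p under 0.05. DESeq2 and limma-voom also called 0 members, against 7% and 0.0497% of all genes. Members leaned lower in KO, with 25 of 31 below 0 and a median log2 fold change of -0.39, against 0.02 over all genes. Here a WT library stood apart: 25 of 31 members (80.6%) were highest in WT replicate 3, against 13.6% of all genes, and 23 were lowest in WT replicate 1, against 15.9% of all genes. The 3 KO libraries lay between these, and the mean member level was 4.49, 5.40 and 6.08 log2 CPM in WT and 5.15, 5.06 and 5.11 in KO.

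Named members show the spread among WT mice. Isg15 was at 5.37, 13.9 and 44.1 CPM in WT and 12.0, 14.9 and 12.4 CPM in KO. Oasl1 was at 4.26, 20.7 and 48.0 CPM in WT and 12.3, 7.0 and 9.53 CPM in KO (log2 fold change -1.34, SE 0.77, edgeR adjusted p = 0.413). In both genes all KO libraries fell inside the WT range. Ifitm3 was at 117, 283 and 513 CPM in WT and 128, 184 and 146 CPM in KO, again inside the WT range (log2 fold change -1.0, SE 0.50, edgeR adjusted p = 0.368). It was called in the fit of all 24 libraries (-1.01, SE 0.31, edgeR adjusted p = 0.0334), the only one of the alternatives for IAT to call a member. That fit called 15.9% of all genes in IAT, so 1 of 31 members (3.23%) was below the share of all genes.

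Ifih1 was the only IAT member whose groups did not overlap (1 of 31, against 18.5% of all genes). It was at 42.7, 51.2 and 65.0 CPM in WT and 35.0, 42.0 and 38.3 CPM in KO, with a log2 fold change of -0.46 (SE 0.19, edgeR adjusted p = 0.307). A few members were instead highest in KO replicate 1, namely Irf9 at 99.4 CPM (others 43.6 to 79.1), Ddx58 at 97.3 CPM (others 40.7 to 70.1) and Parp14, an ADP-ribosyltransferase, at 125 CPM (others 51.7 to 105). That library also held the most lymphocyte transcripts, with a summed list of 3287 CPM, followed by KO replicate 3 at 1691 CPM and 21.1 to 70.0 CPM in the others.

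Macrophage and monocyte markers rose from WT replicate 1 to 2 to 3 of IAT, as the mean member level did. Over all 6 libraries the order was not the same, as WT replicate 1 was lowest for the members and KO replicate 2 for the markers. Their summed level was 1957, 5102 and 6654 CPM in WT replicates 1, 2 and 3 and 2560, 1391 and 1893 CPM in KO, so they were highest in the library where most members were highest. The list had 18 of 21 tested genes lower in KO and a median log2 fold change of -1.35. Skeletal muscle transcripts were at 1374 and 4749 CPM in WT replicates 1 and 2 and at most 87.7 CPM elsewhere. The part of these cells in the members' values was not tested.

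Without WT replicate 3 the IAT median became 0.06, with 17 members higher and 14 lower. Without WT replicate 1 it was -0.65, and without WT replicates 1 and 2 together, which leaves a lone WT library assumed to vary like the others, it was -1.04. Without KO replicates 1 and 3 it was -0.50. No member was called in any of these fits.

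**Figure D4:**
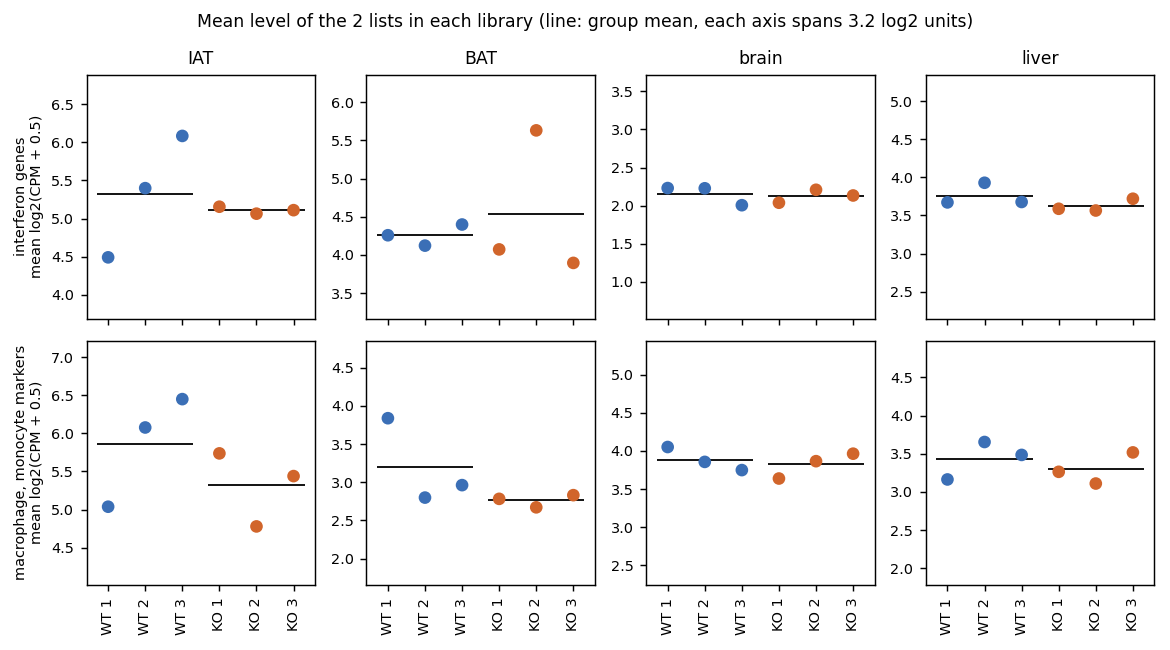
Mean log2(CPM + 0.5) of the members (top row) and of the macrophage and monocyte markers (bottom row) in each library, with blue points for WT, orange for KO and lines for group means. In IAT both rows are highest in WT replicate 3, and in BAT the members are highest in KO replicate 2 (5.63) while the markers there are lowest.

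In liver, Ifi27l2b fell in KO, the single member called in any tissue (1 of 31). It was at 9.77, 10.6 and 6.87 CPM in WT and 4.33, 3.22 and 2.66 CPM in KO, so the groups did not overlap. The log2 fold change was -1.42 (SE 0.22, edgeR adjusted p = 0.0241). Of all genes in liver 1.11% were called, and 0.535% were called lower, against 1 of 31 members (3.23%). At an unadjusted p under 0.05 there were 8 of 31 members (25.8%), against 16.1% of all genes. DESeq2 called 3.26% and limma-voom 0.957% of all genes, and both called Ifi27l2b. Ifi27l2b (gene 217845, chromosome 12, 103450898 to 103457223) is a relative of Ifi27, and its levels in the other tissues were too low for a test in BAT and brain. Its neighbours did not follow: Ifi27 was at 78.2 to 94.1 CPM in WT and 84.5 to 99.8 CPM in KO (log2 fold change 0.08, SE 0.10), and Ifi27l2a at 3.41 to 7.17 and 4.42 to 5.77 CPM (0.01, SE 0.26). In edgeR the call was lost when WT replicate 1 (adjusted p = 0.0763) or WT replicate 2 (0.0914) was left out, and likewise for KO replicate 2 (0.0726) and 3 (0.0604), with log2 fold changes of -1.26 to -1.62 over the 6 fits that leave out a library.

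Groups did not overlap for 10 of 31 liver members (32.3%), against 21.6% of all genes. In 7 of the 10 every KO value was under every WT value, a pattern seen in 11% of all genes, and in 3 the KO values were the higher ones. The members leaned little as a whole, with 13 higher, 18 lower and a median log2 fold change of -0.07, against 0.00 over all genes.

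**Figure D5:**
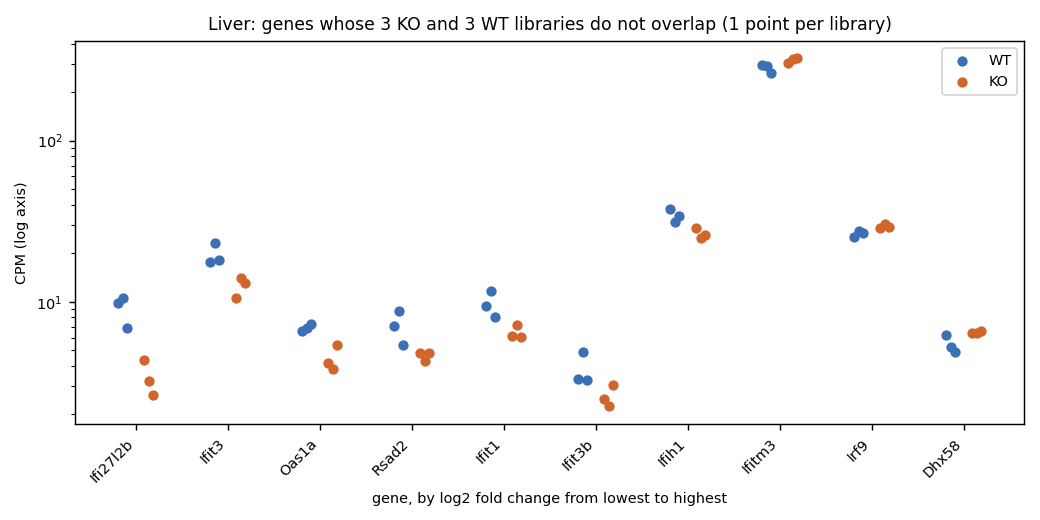
CPM on a log axis of the 10 members whose liver groups do not overlap, with 1 point per library (blue WT, orange KO), ordered by log2 fold change. Ifi27l2b has the widest gap, 6 further genes lie lower in KO, and Ifitm3, Irf9 and Dhx58 lie slightly higher.

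Among the IFIT genes in liver, Ifit3 was at 17.6, 23.1 and 18.0 CPM in WT and 10.6, 14.1 and 13.0 CPM in KO (log2 fold change -0.64, SE 0.14, edgeR adjusted p = 0.0842). It was called with no filter on low counts (edgeR adjusted p = 0.0497), with DESeq2 (adjusted p = 0.0112) and with the replicate number as a block (edgeR adjusted p = 0.0353), and over its alternatives the adjusted p ran from 0.0112 to 0.865. Of all genes, 1.34% were called with no filter, 3.26% with DESeq2 and 1.85% with the block. Ifit1 was at 9.48, 11.7 and 8.03 CPM in WT and 6.15, 7.18 and 6.05 CPM in KO (-0.59, SE 0.16, edgeR adjusted p = 0.127). Ifit3b was at 3.29, 4.90 and 3.26 CPM against 2.51, 2.24 and 3.05 CPM. The remaining IFIT gene, Ifit2, overlapped between the groups (6.24 to 8.51 against 4.79 to 6.56 CPM). All 4 IFIT genes thus had lower means in KO liver, and none passed the test.

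Oas1a was at 6.59, 6.86 and 7.28 CPM in WT and 4.16, 3.85 and 5.43 CPM in KO (log2 fold change -0.62, SE 0.16, edgeR adjusted p = 0.115). Its near-identical copy Oas1g overlapped, at 1.46 to 2.63 against 1.72 to 1.92 CPM. Rsad2 was at 7.11, 8.82 and 5.36 CPM in WT and 4.84, 4.31 and 4.80 CPM in KO (-0.61, SE 0.19, edgeR adjusted p = 0.167). The sensor Ifih1 was at 37.6, 31.2 and 34.3 CPM in WT and 28.7, 24.8 and 25.9 CPM in KO (-0.38, SE 0.10, edgeR adjusted p = 0.121). None of these passed.

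The liver members above WT differed by little. Irf9 was at 25.2 to 27.3 CPM in WT and 28.8 to 30.4 CPM in KO (log2 fold change 0.16, SE 0.08), Dhx58, which modulates the RNA sensors, at 4.89 to 6.24 and 6.38 to 6.61 CPM (0.25, SE 0.14), and Ifitm3 at 264 to 296 and 303 to 325 CPM (0.15, SE 0.09). None passed. Macrophage and monocyte markers overlapped between the liver groups, with summed levels of 397 to 584 CPM in WT and 395 to 616 CPM in KO, and so did lymphocyte markers (11.1 to 18.2 against 9.71 to 13.6 CPM). The summed plasmacytoid dendritic cell list did not overlap, at 15.3 to 16.0 CPM in WT and 11.7 to 12.8 CPM in KO. Of its 10 genes 2 passed the filter and neither was called. Its marker Siglech was low, at 0.520 to 0.568 CPM in WT and 0.170 to 0.287 CPM in KO. The same list summed to 316 to 419 CPM in WT brain. The skeletal muscle (7.02 to 12.5 against 5.17 to 6.55 CPM), adipose (8.09 to 10.1 against 6.05 to 6.78 CPM) and brain lists (11.5 to 13.5 against 7.18 to 10.5 CPM) were also lower in KO liver without overlap. Only 2, 1 and 2 genes of these lists passed the filter in liver. The part of these cells in the liver values was not tested.

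In brain, 0 of 25 members were called (edgeR, 1 at an unadjusted p under 0.05), where 0.0487% of all genes were called and 6.58% were at an unadjusted p under 0.05. DESeq2 and limma-voom also called 0 members, against 0.382% and 0.0139% of all genes. There were 11 members higher and 14 lower, with a median log2 fold change of -0.02, against 0.00 over all genes. The mean member level stayed within 2.01 to 2.23 log2 CPM over the 6 libraries. Ifi27 did not overlap, at 22.9, 19.3 and 20.7 CPM in WT and 13.9, 18.6 and 16.7 CPM in KO (log2 fold change -0.35, SE 0.14, edgeR adjusted p = 0.749). Oasl2, an oligoadenylate synthetase-like protein, was at 3.09 to 3.45 CPM in WT and 2.45 to 2.93 CPM in KO (-0.30, SE 0.20). These 2 of 25 compare with 12.5% of all genes that did not overlap. The most abundant brain members, Cmpk2 at 24.6 to 36.6 CPM in WT and 21.7 to 33.8 CPM in KO and Stat2 at 28.8 to 30.1 and 26.8 to 33.3 CPM, overlapped.

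The KO change itself was compared between tissues in 1 fit of the 24 libraries, which treats them as separate mice. Its filter on low counts ran over all 24 libraries, so members below the filter in BAT or brain, such as Ifi27l2b, were included. None of 31 members was called (edgeR F-test, smallest adjusted p = 0.249 for Ifit1, 1 at an unadjusted p under 0.05), against 0.421% of all genes. The DESeq2 likelihood ratio test also called 0 members, against 7.61% of all genes. The opposite leanings of BAT and IAT, at medians of 0.47 and -0.39, were therefore not shown to differ for any member. Ifitm3 was called without IAT WT replicate 1, where 1.57% of all genes were, and Ifi27 without IAT KO replicate 2, where 18.1% of all genes were.

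The rest of the pathway was followed in 5 lists, and no gene of them was called in any tissue by edgeR. At an unadjusted p under 0.05 there were 10 of 92 tested genes in liver, 3 of 88 in brain, 12 of 92 in BAT and 13 of 97 in IAT. These are 10.9%, 3.41%, 13% and 13.4% of the lists, each below the 16.1%, 6.58%, 18.5% and 15.8% of all genes in those tissues. The receptor genes were present throughout. Ifnar1 was at 68.8 to 90.5 CPM in WT and 61.3 to 113 CPM in KO in IAT, and at 69.0 to 71.0 and 56.9 to 63.1 CPM in BAT, where the groups did not overlap (log2 fold change -0.25, SE 0.08, edgeR adjusted p = 0.178). Ifnar2 was at 116 to 122 CPM in WT and 109 to 118 CPM in KO in BAT. Of the 27 ligand and receptor genes listed, 14 were among the genes of the series. Ifnb1, Ifna1, Ifna2, Ifna6, Ifna12 and Ifnab had 0 counts in all 6 BAT libraries, KO replicate 2 included, and the same 6 had 0 counts in liver. In IAT only Ifna2 had 0 counts in all libraries. There 2 of the 14 genes were at 0 in KO replicate 1, against 6 or 7 in each other library.

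Genes of receptor signalling and induction outside the members, and further induced genes, gave these values. Ptpn11, a phosphatase of receptor signalling, was at 150 to 172 CPM in WT BAT and 233 to 305 CPM in KO BAT (log2 fold change 0.71, SE 0.12, edgeR adjusted p = 0.0622), so KO replicate 2, at 240 CPM, did not stand apart for it. In liver, Cxcl10, a chemokine induced by interferons, was at 5.09, 4.33 and 6.46 CPM in WT and 1.94, 3.33 and 2.15 CPM in KO (-1.09, SE 0.25, edgeR adjusted p = 0.0842). Ikbke, a kinase upstream of interferon induction, was at 11.8 to 15.5 CPM in WT liver and 18.4 to 22.8 CPM in KO liver (0.56, SE 0.13, edgeR adjusted p = 0.0865). Neither passed. Over the tested genes of the other interferon-inducible list, the median log2 fold change was -0.08 in liver (47 genes), 0.02 in brain (45) and BAT (46), and 0.32 in IAT (49). The IAT value stands beside the lymphocyte transcripts of KO replicates 1 and 3 (3287 and 1691 CPM), whose part in it was not tested.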

How the data were processed

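The authors deposited 1 table of 19015 genes. Its expected counts, which are estimated reads per gene, and its TPM values are as named per the file headers, and 48 further per-sample columns were not used. The submitters' processing notes list build GRCm38.p6 with RSEM 1.3.1, Bowtie2 2.3.4.3 and DESeq2 1.4.5. The members and all gene lists were chosen with earlier results of these data known, so no list is tested as a whole. All members could be named, with Prxl2a, and up to 2 genes per list and tissue with the smallest p, and marker genes where a library stood apart. Expected counts were rounded and tested in each tissue with edgeR 4.0.16 (TMM, filterByExpr with a minimum count of 10, quasi-likelihood F-test, Benjamini-Hochberg over all tested genes, called under 0.05). CPM is TMM-scaled within a tissue. The script was tested on simulated data. Alternatives used DESeq2 1.42.0 and limma 3.58.1 in R 4.3.3, other scalings and filters, log2(TPM + 1) and log2(TPM + 0.1), a replicate block and leaving out libraries. Promoter letters were counted in RefSeq sequences. Transcript identities came from blastn 2.17.0. No 2 replicate libraries held identical counts. One further gene of the pathway lists is not reported here.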

Additional observations from a re-analysis of the deposited data

How the results depend on the processing

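The number of members called stayed at 0 in BAT and brain under every alternative run, and in IAT under all but the fit of 24 libraries, which called 1 (Ifitm3). In liver the 1 call became 2 with no filter on low counts, with DESeq2 and with the replicate number as a block in edgeR (Ifit3 was added), and 0 in the fit of 24 libraries. Leaving out each liver library gave 0 to 1. The block changed no other count of called members, which stayed at 0 in IAT, BAT and brain, and the numbers were not shown to pair the samples, since the deviations of same-numbered libraries correlated at -0.25 to 0.40. The median log2 fold change of BAT members, 0.47 with all libraries, ran from -0.27 to 0.75 over the fits that leave out 1 library, and was -0.27 without KO replicate 2. That of IAT members, -0.39, was -1.04 with both WT replicates 1 and 2 left out and ran from -0.65 to 0.06 with 1 library left out. The number of members whose KO change differed between tissues ran from 0 to 1 when 1 library was left out. All 31 members still differed between WT tissues in every alternative. With a gap of 1 to 3 bases, the response element letters were in 72.7% of the 22 members with a promoter and 8.61% of all promoter sequences. With 3 libraries per group, a single library can set a group mean, and low members such as Ifi27l2b (2.66 to 10.6 CPM in liver) leave little depth. The cause of these changes was not tested.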

Other observations

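Members were compared between BAT KO replicate 2 and IAT WT replicate 3, the libraries where most were highest. Over the 28 members tested in both, 5 of the 10 with the largest ratio in BAT KO replicate 2 were among the 10 with the largest ratio in IAT WT replicate 3: Ifit1, Isg15, Oasl1, Oasl2 and Zbp1. The rank correlation across members was 0.44, a description only, since members are not independent. The overlap was not tested. Members with a mean of at least 5 CPM over all 6 libraries, the ranked library included, numbered 25 in BAT and 30 in IAT. Among the 50 genes with the largest ratio at such a mean, 16 were members and 7 other interferon-inducible genes in the BAT library. In the IAT library these were 3 and 0. The gene at rank 50 had a ratio of 2.07 in the BAT library and 3.59 in the IAT library, so these counts are not on a like scale. In IAT WT replicate 3, 15 of 31 members (48.4%) were at least 2-fold above the mean of the other 5 libraries, against 3.4% of all genes, led by Oasl1 at 4.46, Oas1g at 4.17 and Isg15 at 3.77. Of the 49 other interferon-inducible genes tested in IAT, 4 were at least 2-fold above in that library. In KO replicate 1, which held the most lymphocyte transcripts, 16 of the 49 were, against 0 of 31 members and 11% of all genes. In BAT KO replicate 2, 9 of 46 of those genes were at least 2-fold above the mean of the other libraries. Of all genes there, 0.779% were.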
